A study of Mus musculus with 10 samples.

Results

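The genes described here act at the sites where the cytidine deaminase AID mutates antibody genes: the uracil glycosylases Ung and Smug1, the abasic-site endonucleases Apex1 and Apex2, the mismatch recognition subunit Msh6, and the DNA polymerases Polh, Rev1 and Polq. They were chosen by name, as the rows of the count table whose identifiers map to these 8 symbols, and make up 8 of its 55421 genes. The deaminase's own gene is not analysed here, so the values concern the processing of its lesions and not AID itself. RNA-seq was done on splenic germinal center B cells of immunized C57BL/6 mice aged 8 to 10 weeks, collected on day 10 after immunization and enriched with magnetic beads that bind the lectin PNA. Genotypes were Pbrm1+/+ (WT) and Pbrm1-/- (HOMO). The protein PBRM1 carries bromodomains and belongs to PBAF, which remodels chromatin as a variant of SWI/SNF. Each genotype gave fractions labelled CB and CC, with 3 libraries per fraction in WT and 2 per fraction in HOMO. Neither CB nor CC is spelled out in the labels, though centrocytes appear in the study's title. Column names of the count table also carry the letters AID, which the labels do not explain. No label says whether the libraries of a group came from separate mice, so the spread behind the p-values is that of these libraries and may be technical.

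As background, germinal center B cells divide and mutate as centroblasts in the dark zone and are selected for antigen binding as centrocytes in the light zone. AID deaminates cytosine to uracil in the variable regions of antibody genes. A uracil copied during replication gives a C-to-T change. UNG removes the uracil and leaves an abasic site, which REV1 and other translesion polymerases can copy past with changes at C and G pairs. MSH6 belongs to the dimer that recognises the U:G mismatch, and the gap cut around it is filled by DNA polymerase eta, the product of Polh, which makes most of the mutations at A and T pairs. The same lesions feed faithful base excision repair, and breaks made from them serve class switching.

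The total count per library lay between 9954006 and 67625110, which limits the precision of the low genes. Levels are given as CPM, the counts scaled to library size with TMM factors. The summed level of 6 B cell markers lay between 3758 and 5250 CPM. Summed centroblast markers Cxcr4 and Gcsam reached 509 to 782 CPM in the 5 CB libraries and 137 to 166 CPM in the 5 CC libraries, while the centrocyte markers Cd83, Cd86 and Myc summed to 271 to 326 and 581 to 687 CPM. Pbrm1, the deleted gene, measured 309 to 319 CPM in WT CB, 164 to 178 CPM in HOMO CB, 239 to 250.3 CPM in WT CC and 150.4 to 152 CPM in HOMO CC. It was lower in HOMO CB (log2 change -0.88, edgeR adjusted p = 0.00954), and in HOMO CC it gave -0.68 (edgeR adjusted p = 0.0564). A summed count over the whole gene can hold reads from outside a deleted part. It does not show which part was deleted or in what share of the cells. The source of the Pbrm1 reads that remained in HOMO was not tested. The WT CC libraries 1, 2 and 3 held 278.9, 73.3 and 23.3 CPM of 6 macrophage markers, against 6.88 to 18.3 CPM in all other libraries. Neutrophil markers summed to 157.7 and 125.4 CPM in the HOMO libraries numbered 2 and to at most 14.5 CPM elsewhere. Plasma cell markers (5 genes) were higher in CB, at 647 to 724 against 293 to 515 CPM in WT and 781 to 840.1 against 414 to 428 CPM in HOMO. Ribosomal RNA loci took 11.3% to 11.9% of counts in WT CB and 22.7%, 19.0% and 13.5% in WT CC libraries 1, 2 and 3. Both libraries of WT number 3 stood apart from WT numbers 1 and 2 in their GC content trend: across 8907 genes the Spearman correlation of GC content with a library's deviation from the mean was 0.154, 0.255 and -0.47 in WT CB, 0.433, 0.562 and 0.151 in WT CC, -0.643 and -0.615 in HOMO CB, and -0.184 and -0.227 in HOMO CC. Xist, the RNA of the inactive X, measured 72.5 to 708 CPM in the libraries of WT numbers 1 and 2. It measured 2022 to 2884 CPM in those of WT number 3 and HOMO. Ddx3y, a gene of the Y chromosome, measured 79.6 to 103.5 CPM and 35.2 to 51.1 CPM in these sets of libraries. The part of these differences in the results below was not tested, except where a value without a library or with a GC content term is given.

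Of the 8 genes, 7 have an upstream window in the RefSeq promoter table (build GRCm38.p6); Apex2 is named only. The stretches below are the parts of the 250 bases before the RefSeq start that no annotated exon covers, on the strand of the gene. They are shown for the 5 genes that passed between the fractions in WT with or without the WT number as a block. Capitals mark the letters of the motifs searched: CCAAT or its reverse ATTGG, the GC box GGGCGG or CCGCCC, and TTTGAA or TTCGAA with the reverse TTCAAA.
Polh, chr17:46202646-46202781, minus strand: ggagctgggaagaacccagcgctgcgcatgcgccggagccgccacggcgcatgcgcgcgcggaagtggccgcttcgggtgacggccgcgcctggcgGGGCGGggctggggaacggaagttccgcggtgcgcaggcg
Apex1, chr14:50924894-50924948, plus strand: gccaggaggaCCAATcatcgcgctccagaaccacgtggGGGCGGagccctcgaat
Ung, chr5:114130185-114130385, plus strand: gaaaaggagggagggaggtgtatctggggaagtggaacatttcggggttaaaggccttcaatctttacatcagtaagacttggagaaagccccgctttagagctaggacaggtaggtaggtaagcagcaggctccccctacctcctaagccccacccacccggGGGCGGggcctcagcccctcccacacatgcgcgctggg
Msh6, chr17:87974800-87975049, plus strand: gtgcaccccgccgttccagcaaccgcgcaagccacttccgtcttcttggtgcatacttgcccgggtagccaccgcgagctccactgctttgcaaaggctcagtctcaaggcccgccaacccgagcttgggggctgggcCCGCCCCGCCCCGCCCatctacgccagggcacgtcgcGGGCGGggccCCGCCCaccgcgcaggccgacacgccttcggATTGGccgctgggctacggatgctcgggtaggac
Polq, chr16:37011536-37011785, plus strand: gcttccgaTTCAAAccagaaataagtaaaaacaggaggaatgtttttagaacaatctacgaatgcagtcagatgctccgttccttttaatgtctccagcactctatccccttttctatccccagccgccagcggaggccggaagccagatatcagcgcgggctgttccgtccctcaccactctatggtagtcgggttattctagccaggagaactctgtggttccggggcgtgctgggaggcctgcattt

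A GC box lay within the whole 250-base window of 5 of the 7 genes (Ung, Apex1, Msh6, Polh and Rev1), against 32.7% of all 32851 windows in the table. The GC content of these 5 windows was 62.8% to 83.6%, beside a median of 52.4% over all windows. Smug1 and Polq, without a GC box, had 50.4% and 51.6%. The part of base composition in these matches was not tested. CCAAT was found upstream of Smug1, Apex1 and Msh6, 3 of 7, against 33.8% of windows. TTTGAA or TTCGAA, the letters of the cell cycle homology region found in promoters of many G2 and M phase genes, was found upstream of Apex1 and Polq, against 17.1% of windows. In Apex1 that match lies in an exon of the neighbouring gene and is not printed. The E2F letters TTTGGCGC and TTTCGCGC (0.654% of windows) and the octamer ATGCAAAT (1.6% of windows) were found in none of the 7. All motifs were searched on both strands. The GC box of Polh lies between the start of Polh and that of Xpo5, a nuclear exporter of microRNA precursors, which is transcribed in the opposite direction.

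In WT, CC was set against CB to ask how the repair genes differ between the fractions. Polh fell to 0.315 of its CB level in CC, and Apex1 rose 1.40-fold. Of the 8 genes, 1 rose and 1 fell (edgeR's quasi-likelihood test with Benjamini-Hochberg adjusted p under 0.05), against 11.6% of 16596 genes tested that rose and 12.3% that fell. With upper-quartile scaling, 59.5% of the called genes were higher in WT CC, against 48.3% here. All 8 genes passed the filter on low counts. With the WT number as a block, 3 rose and 2 fell: Ung and Polq joined Apex1, and Msh6 joined Polh. Calls over all genes grew as well with the block, from 1917 to 2811 higher and from 2048 to 3056 lower. DESeq2 also called 3 of the 8 higher and 2 lower, with 2307 and 2245 over all genes. In bulk libraries, fewer cells that express a gene and less RNA per cell cannot be told apart.

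**Figure D1:**
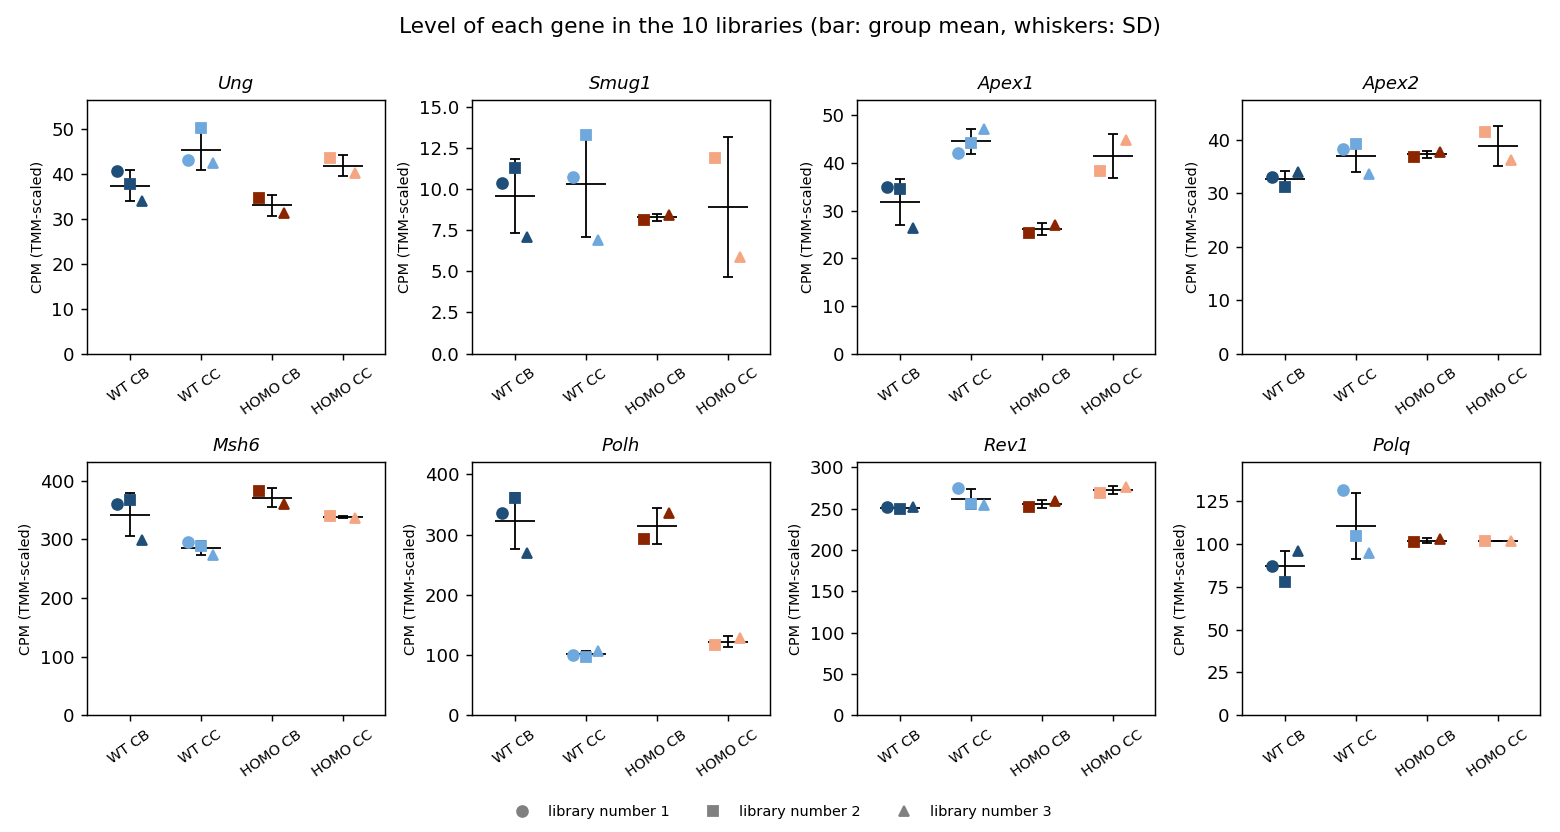
TMM-scaled CPM (vertical axes, from 0) of the 8 genes in the 10 libraries by group; each point is a library, its shape gives the library number, the bar is the group mean and the whiskers are the SD. Polh lies between 270.2 and 361 CPM in the CB libraries and between 97.2 and 129 CPM in the CC libraries, and Apex1 is higher in all CC libraries than in any CB library.

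Ung (ENSMUSG00000029591.14, chr5:114130386-114139323, plus strand) encodes the glycosylase that removes most AID-made uracil. It measured 40.7, 37.8 and 34.0 CPM in WT CB and 43.2, 50.4 and 42.4 CPM in WT CC. All CC libraries were above all CB libraries, by a log2 change of 0.28 (SE 0.109) that did not pass (edgeR adjusted p = 0.0902). With the WT number as a block the change was 0.27 and passed (edgeR adjusted p = 0.0321). With the block and a GC content offset together it was 0.24 and did not pass (edgeR adjusted p = 0.0535). The ratios within WT numbers 1, 2 and 3 were 1.06, 1.33 and 1.25. In HOMO, Ung measured 34.6 and 31.4 CPM in CB and 43.6 and 40.2 CPM in CC. The log2 change of 0.35 did not pass (SE 0.135, edgeR adjusted p = 0.181).

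Smug1 (ENSMUSG00000036061.10, chr15:103153290-103167092, minus strand) encodes another uracil glycosylase, which can act on single-stranded DNA. Its counts were low, down to 62 reads in the HOMO CC library 3. It measured 10.4, 11.3 and 7.07 CPM in WT CB and 10.8, 13.3 and 6.88 CPM in WT CC. Library 3 was the lowest in both WT fractions. HOMO libraries held 8.13 and 8.44 CPM in CB and 11.9 and 5.88 CPM in CC, with one CC library on each side of both CB libraries. The interval of the log2 change in WT ran from -0.52 to 0.76, so changes within that range in either direction remain possible (edgeR adjusted p = 0.814).

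Apex1 (ENSMUSG00000035960.14, chr14:50924968-50927139, plus strand) encodes the main endonuclease that cuts DNA at abasic sites. It measured 34.9, 34.5 and 26.3 CPM in WT CB and 42.1, 44.2 and 47.2 CPM in WT CC, and every CC library was above every CB library. The log2 change was 0.48 (SE 0.125, 95% interval 0.21 to 0.76, edgeR adjusted p = 0.0176). Within WT numbers 1, 2 and 3 the CC to CB ratio was 1.21, 1.28 and 1.795. The largest ratio was that of WT number 3, whose CB library was the lowest of the WT CB libraries. Without WT CC libraries 1 and 2, where the macrophage markers were highest, the change was 0.58. Its CC side is then WT CC 3 alone, at 23.3 CPM of these markers. Their part in the change was not tested. With that 1 library, assumed to vary like the other groups, it did not pass (edgeR adjusted p = 0.102). In HOMO it measured 25.2 and 27.1 CPM in CB and 38.2 and 44.7 CPM in CC, with a log2 change of 0.66 (SE 0.155, 95% interval 0.32 to 1.00, edgeR adjusted p = 0.0308). Without HOMO CB 2, HOMO CB 3, HOMO CC 2 or HOMO CC 3 the log2 change was 0.61, 0.71, 0.76 and 0.54, and it did not pass (edgeR adjusted p = 0.228, 0.163, 0.091 and 0.273). Each of these fits leaves 1 library in a HOMO group, which is assumed to vary like the other groups. Of the exon bases of Apex1, 877 (61.7%) are shared with Pip4p1 on the opposite strand, and no source used here gives the strand setting of the counting. Reads of the pair may therefore be mixed. Pip4p1 itself gave a log2 change of 0.08 in WT (edgeR adjusted p = 0.56).

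Apex2 (ENSMUSG00000025269.16, chrX:150519519-150589868, minus strand) encodes a related endonuclease of weaker abasic-site activity. It measured 33.1, 31.3 and 34.0 CPM in WT CB and 38.4, 39.2 and 33.6 CPM in WT CC, with overlapping groups. Neither fraction test passed, with a log2 change of 0.18 in WT (SE 0.101, edgeR adjusted p = 0.232) and 0.06 in HOMO (SE 0.124, edgeR adjusted p = 0.865). The HOMO values were 36.8 and 37.8 CPM in CB and 41.5 and 36.2 CPM in CC. Apex2 is on the X chromosome, and Xist, the RNA of the inactive X, ranged from 72.5 to 2884 CPM over the libraries with its lowest values in both WT number 2 libraries; its part in the Apex2 values was not tested. Of the exon bases of Apex2, 434 (4.96%) are shared with Alas2 and Pfkfb1 on the opposite strand.

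Msh6 (ENSMUSG00000005370.4, chr17:87975062-87990892, plus strand) encodes the subunit that binds base mismatches. It measured 360.3, 367 and 299.6 CPM in WT CB and 296, 288 and 273 CPM in WT CC. Every CC library was below every CB library, although WT CB 3 lay only just above WT CC 1. The log2 change was -0.26 (SE 0.0938, edgeR adjusted p = 0.066), and with the block it was -0.26 and passed (SE 0.0641, edgeR adjusted p = 0.0106). All 3 pairs went the same way, at ratios of 0.822, 0.785 and 0.911. In HOMO, Msh6 measured 383 and 360.4 CPM in CB and 339.9 and 337 CPM in CC, and the log2 change of -0.13 did not pass (edgeR adjusted p = 0.606).

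Polh (ENSMUSG00000023953.9, chr17:46171355-46202645 on mm10, minus strand) encodes DNA polymerase eta, which copies past ultraviolet lesions and fills gaps made by mismatch repair at mutating antibody genes. It measured 335, 361 and 270.2 CPM in WT CB libraries 1, 2 and 3 and 100.1, 97.2 and 107 CPM in WT CC libraries 1, 2 and 3. Every CB library lay well above every CC library, and the groups did not overlap. The log2 change was -1.67 (SE 0.117, 95% interval -1.92 to -1.41, edgeR adjusted p = 1.69e-05). Within the WT numbers 1, 2 and 3 the CC to CB ratio was 0.299, 0.27 and 0.396, so all 3 same-numbered pairs went the same way.

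Polh fell in HOMO as well. It measured 293 and 336 CPM in the HOMO CB libraries and 116 and 129 CPM in the HOMO CC libraries, a log2 change of -1.36 (SE 0.143, 95% interval -1.68 to -1.05, edgeR adjusted p = 0.000472). The groups did not overlap. Polh was called lower in CC under all 19 alternatives run in WT (log2 change -1.82 to -1.52) and all 17 run in HOMO (-1.46 to -1.26). The 12 genes listed for G2 and M phases summed to 6363 to 7229 CPM in WT CB and 4017 to 4154 CPM in WT CC, and all 12 passed as lower in WT CC. In HOMO the sums were 7372 and 7755 CPM in CB and 4574 CPM in both CC libraries. All 12 had negative log2 changes there too, and 10 of them passed in edgeR. Of 12 S phase genes, 9 had negative log2 changes in WT CC, of which 3 passed. In HOMO 7 were negative and none passed in edgeR. Whether the share of cycling cells has a part in the fall of Polh was not tested.

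Xpo5 was added after its position next to Polh was seen, and the values of other neighbours likewise. Its first exon and that of Polh are 136 bases apart. It measured 45.4, 49.2 and 45.5 CPM in WT CB and 56.9, 56.9 and 63.1 CPM in WT CC. Xpo5 was higher in CC, by 0.34 in WT (edgeR adjusted p = 0.0185) and by 0.43 in HOMO (edgeR adjusted p = 0.0427) on the log2 scale. Across the short stretch printed above, the gene on one side was lower in CC and the gene on the other side was higher.

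Rev1 (ENSMUSG00000026082.11, chr1:38052786-38129801, minus strand) encodes a deoxycytidyl transferase that also serves as a scaffold for other translesion polymerases. It had the narrowest spread of the 8 genes relative to its level in WT CB, at 252.4, 249.8 and 251.5 CPM, and measured 274.9, 255.8 and 253.7 CPM in WT CC. Although the groups did not overlap, the log2 change was 0.06, with a 95% interval from -0.11 to 0.22 (edgeR adjusted p = 0.629). HOMO gave 252 and 259 CPM in CB and 269 and 275.6 CPM in CC, a log2 change of 0.09 (edgeR adjusted p = 0.673). With a GC content offset the WT change was 0.20 and passed (edgeR adjusted p = 0.0386). Over all genes the median log2 change was 0.0685 with that offset and 0.0097 without it. Of the called genes, 57.7% and 48.3% were higher in WT CC. Of its exon bases, 1643 (26.6%) are shared with Eif5b on the opposite strand.

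Polq (ENSMUSG00000034206.15, chr16:37011786-37095417, plus strand) encodes DNA polymerase theta, known for joining broken ends at short homologies. It measured 86.9, 77.7 and 96.1 CPM in WT CB and 131.6, 104.4 and 94.4 CPM in WT CC. WT number 3 differed from the other pairs, with a ratio of 0.982 against 1.51 and 1.34. The log2 change was 0.34 (SE 0.125, edgeR adjusted p = 0.0691), and with the block it was 0.33 and passed (edgeR adjusted p = 0.0245). In HOMO all 4 libraries lay together, at 100.8 and 102.9 CPM in CB and 101.7 and 101.4 CPM in CC. The log2 change there was -0.0045 (SE 0.153, 95% interval -0.34 to 0.33, edgeR adjusted p = 0.995).

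**Figure D2:**
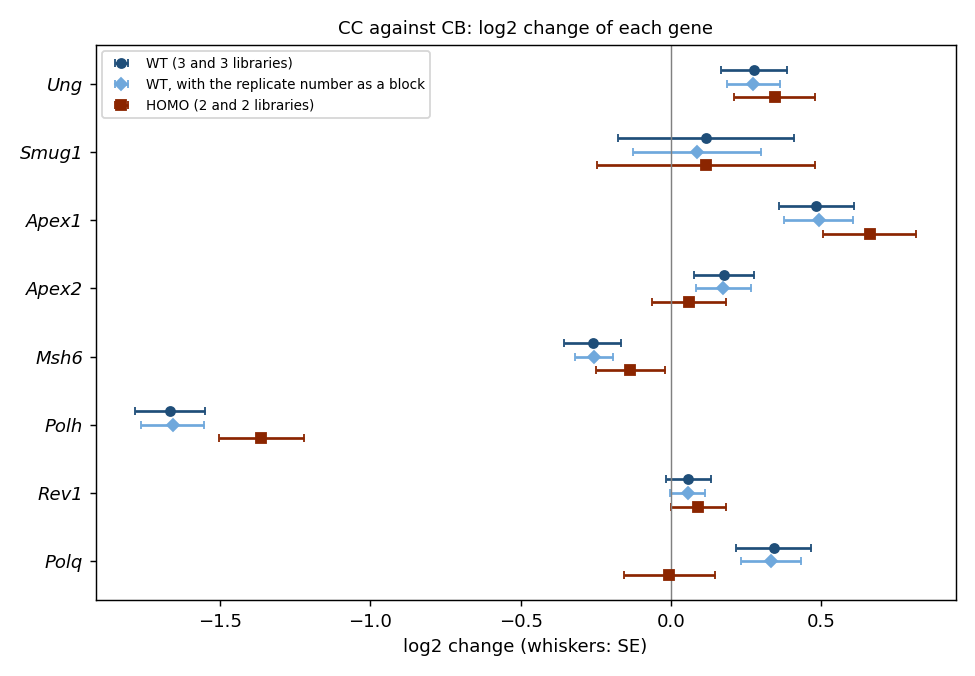
Log2 change of CC against CB (horizontal axis) for the 8 genes in WT, in WT with the library number as a block, and in HOMO; points are the estimates of the edgeR fit and whiskers are the SE. Polh stands at -1.67 and -1.36 while the other 7 genes lie between -0.26 and 0.66.

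Across the 8 genes in HOMO, 1 rose (Apex1) and 1 fell (Polh) in CC, against 2.46% and 2.98% of all genes tested. With upper-quartile scaling, 58.5% of the called genes were higher in HOMO CC, against 45.2% here. DESeq2 called 2 of the 8 as well. The median log2 change of the 8 was 0.15 in WT and 0.08 in HOMO, beside 0.0097 and -0.010 over all genes tested.

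The comparison of HOMO with WT asks whether the loss of Pbrm1 goes with another level of these genes. In CB none of the 8 passed in edgeR, and none had an unadjusted p under 0.05, in edgeR or DESeq2. Over all genes tested, 0.00603% were called higher and 0.0181% lower. The median log2 change of the 8 was -0.0046, beside -0.0386 over all genes. Polh was close in the 2 genotypes, with mean levels of 322 ± 46.6 (SD, n = 3) in WT CB and 314 ± 30.2 CPM (SD, n = 2) in HOMO CB. Its log2 change was -0.03, with a 95% interval from -0.31 to 0.24. For Rev1 the interval ran from -0.16 to 0.21. Apex1 gave -0.28 (SE 0.140, 95% interval -0.59 to 0.03, edgeR adjusted p = 0.431). WT CB 3 at 26.3 CPM lay within the HOMO range of 25.2 to 27.1 CPM, and the other WT CB libraries lay above it. Ung gave -0.18 and Polq 0.23 (edgeR adjusted p = 0.548 and 0.508).

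In CC none of the 8 passed either, and the share of all genes called in edgeR was 0% higher and 0% lower, with 3142 genes at an unadjusted p under 0.05 and 816 called by DESeq2. An unadjusted p under 0.05 was found for 1 gene in edgeR (Msh6) and for 2 in DESeq2 (Msh6 and Polh), and none passed in DESeq2. Msh6 was higher in both HOMO CC libraries, at 339.9 and 337 CPM, than in the 3 WT CC libraries, at 273 to 296 CPM. Its log2 change was 0.24 (95% interval 0.01 to 0.47, edgeR adjusted p = 0.243). Polh in CC was also higher in both HOMO libraries, at 116 and 129 CPM, than in the WT libraries, at 97.2 to 107 CPM. That log2 change was 0.27 (95% interval -0.01 to 0.55, edgeR adjusted p = 0.279). The median log2 change of the 8 was -0.0224, beside -0.0305 over all genes.

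These calls depend on WT number 3. Without both of its libraries, Apex1 (-0.38) and Polq (0.34) passed in CB (edgeR adjusted p = 0.00725 and 0.0142), and Msh6 (0.24) and Polh (0.34) passed in CC (edgeR adjusted p = 0.00621 and 0.00543). Of all 16088 genes tested in that fit, 4895 were called in CB (2462 higher and 2433 lower). In CC 5035 of them were called (2649 higher and 2386 lower). With all 10 libraries the called genes numbered 4 and 0 of 16596. Leaving out the WT CB library 3 alone also took Apex1 past the threshold in CB (-0.40, edgeR adjusted p = 0.04). That fit called 1986 of 16377 genes tested. The estimates of these genes moved by less than their SE, as the plot of the HOMO changes shows. WT number 3 stood with the HOMO libraries in Xist and Ddx3y, and the part of this in the calls was not tested.

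**Figure D3:**
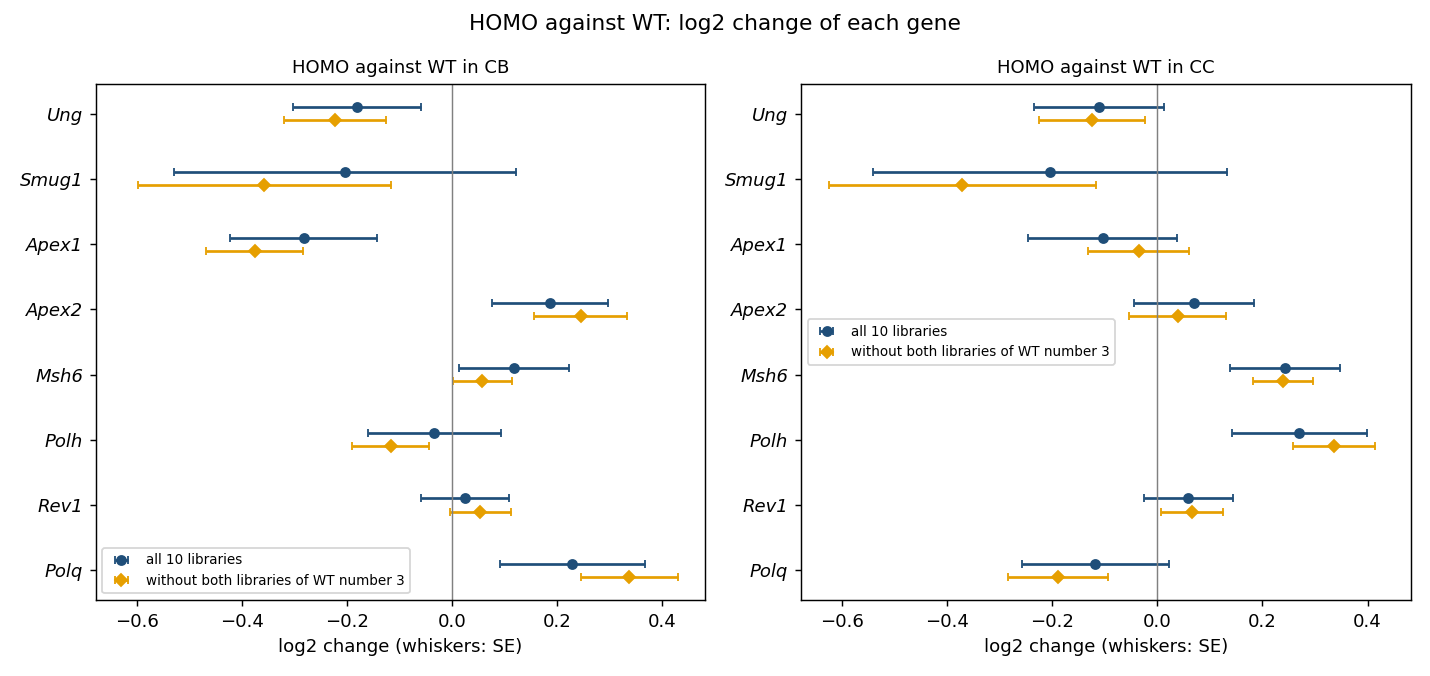
Log2 change of HOMO against WT (horizontal axis) in CB (left) and in CC (right) for the 8 genes, with all 10 libraries and without both libraries of WT number 3; points are the edgeR estimates and whiskers are the SE. Msh6 and Polh lie to the right of 0 in CC, at 0.24 and 0.27 with all libraries, and Apex1 lies to the left of 0 in CB, at -0.28.

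The difference between genotypes in the change from CB to CC was tested as an interaction. None of the 8 genes passed or had an unadjusted p under 0.05, in edgeR or DESeq2. Over all genes tested, 0% were called higher and 0% lower in edgeR, with 434 at an unadjusted p under 0.05 and 0 called by DESeq2. For Polh the interaction was 0.30 (SE 0.181, 95% interval -0.09 to 0.70), and for Polq -0.35 (SE 0.197). Both passed without the WT number 3 libraries, at 0.45 and -0.53 (edgeR adjusted p = 0.02 and 0.0277), in a fit that called 1445 of 16088 genes. That setting was the only one of 18 run in which either gene passed. The 4 comparisons between groups share libraries with each other and with the interaction, so their values are not independent.

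Per kilobase of exon length, which scales the levels for gene length, Msh6 led in all groups. The order in CB was Msh6, Polh, Rev1, Apex1, Polq, Ung, Apex2 and Smug1, in both genotypes. In WT CB these stood at 78.8, 54.1, 40.7, 22.4, 8.97, 6.85, 3.75 and 1.56 CPM per kb on average. In CC, Polh stood behind Rev1 and Apex1 in both genotypes, at 17.0 CPM per kb in WT and 20.6 CPM per kb in HOMO. The other genes kept their order. In no group did the libraries of neighbours in the order overlap. Of the exon bases, 61.7% in Apex1 and 26.6% in Rev1 are shared with genes on the opposite strand. The settings for strand and overlaps are not known, so reads there may be mixed or dropped. The places of Apex1 and Rev1 relative to Polh are therefore uncertain.

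**Figure D4:**
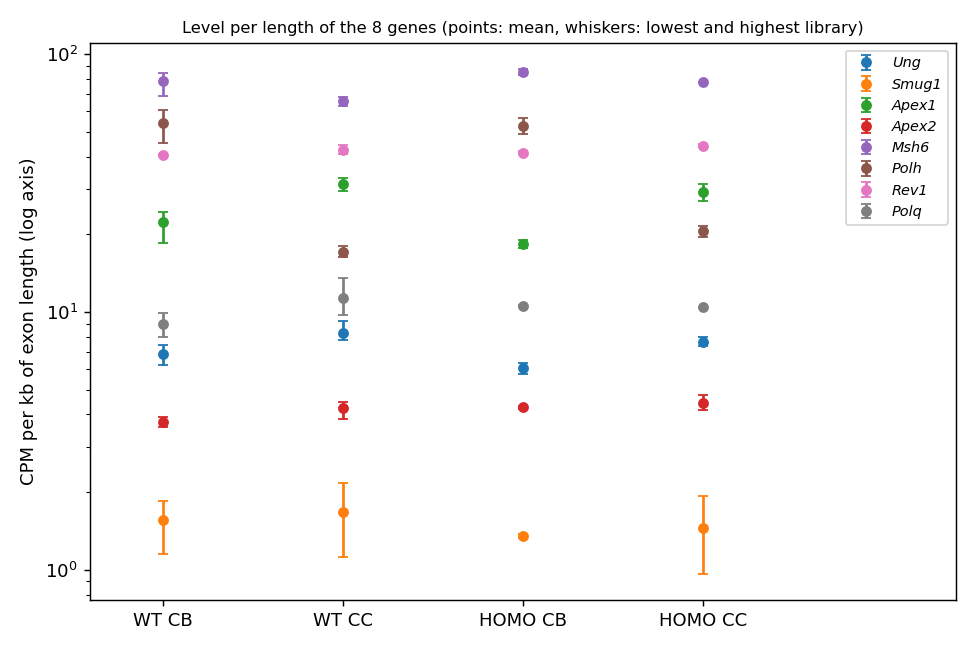
Mean CPM per kb of exon length (log axis) of the 8 genes in the 4 groups; whiskers run from the lowest to the highest library. Polh crosses from above Rev1 in CB to below Apex1 in CC, in WT (54.1 to 17.0 CPM per kb) and in HOMO (52.8 to 20.6 CPM per kb). Exon bases that Apex1 and Rev1 share with other genes are not corrected for.

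Other genes of these pathways were taken from 4 lists with 51 genes in all, each of which was tested. The list of uracil and base excision repair had 21 genes, of which 5 fell and none rose in WT CC, with a median log2 change of -0.09. Hmces, which shields abasic sites in single-stranded DNA by a crosslink to them, went from 423 to 530.3 CPM in WT CB to 174 to 187 CPM in WT CC. Its log2 change of -1.41 (SE 0.0981, edgeR adjusted p = 1.69e-05) was the nearest to that of Polh among the 51. Neil1, a glycosylase for oxidised bases, fell by 1.23 (edgeR adjusted p = 0.000598). Mbd4, a glycosylase for T and U opposite G, fell by 0.66 (edgeR adjusted p = 0.00127). Fam72a, which promotes the degradation of UNG protein, fell by 0.67 (edgeR adjusted p = 0.00518). Ung messenger RNA stood higher in every WT CC library, but its change did not pass (edgeR adjusted p = 0.0902). UNG protein was not measured. The fifth was Pcna, the sliding clamp (-0.44, edgeR adjusted p = 0.0288). In HOMO 4 of the 21 fell and none rose: Hmces (-1.29), Neil1 (-1.08), Mbd4 (-0.58) and Fam72a (-0.64), with edgeR adjusted p between 0.000409 and 0.0472.

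Among 14 genes of translesion synthesis, 5 fell and none rose in WT CC, with a median of -0.14. Poli, a polymerase related to Polh, fell by 0.59 (edgeR adjusted p = 0.00863). Rad18 (-0.50), Ube2a (-0.45) and Ube2b (-0.59), the ligase and the conjugating enzymes that attach ubiquitin to PCNA, passed as well (edgeR adjusted p = 0.00351, 0.00954 and 0.00871). Usp1, which removes that ubiquitin, was the fifth (-0.36, edgeR adjusted p = 0.015). In HOMO Poli alone passed in edgeR (-0.65, edgeR adjusted p = 0.0413), and DESeq2 called Poli, Ube2a and Usp1 lower.

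Of the mismatch repair genes other than Msh6, 5 are analysed here, a list that is not complete. Msh3 fell in both genotypes. Msh3, the subunit that takes the place of MSH6 in the dimer for longer loops, measured 195 to 211 CPM in WT CB and 129.7 to 135 CPM in WT CC, and fell by 0.63 (edgeR adjusted p = 0.000343). Its fall in HOMO was 0.64 (edgeR adjusted p = 0.00312). The other 4 did not pass: Mlh3 gave 0.16 in WT and 0.23 in HOMO, Pms1 0.10 and -0.07, Pms2 -0.24 and -0.05, and Exo1 0.0032 and 0.12. The median of the 5 in WT was 0.0032.

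Among 11 genes listed as cofactors of AID, 1 fell and none rose in WT CC, with a median of -0.07. That gene was Rpa3, the small subunit of the single-strand binding complex RPA (-0.81, edgeR adjusted p = 0.00419). In HOMO none of the 11 passed in edgeR, where Rpa3 alone had an unadjusted p under 0.05 (-0.59, edgeR adjusted p = 0.104), and DESeq2 called Rpa3 lower. Beside the 12.3% of all genes tested that were lower in WT CC, 12 of the 51 genes fell. None of the 51 rose there, beside 11.6% of all genes tested. In HOMO CC 6 of the 51 fell and none rose in edgeR, beside 2.98% lower and 2.46% higher over all genes tested.

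**Figure D5:**
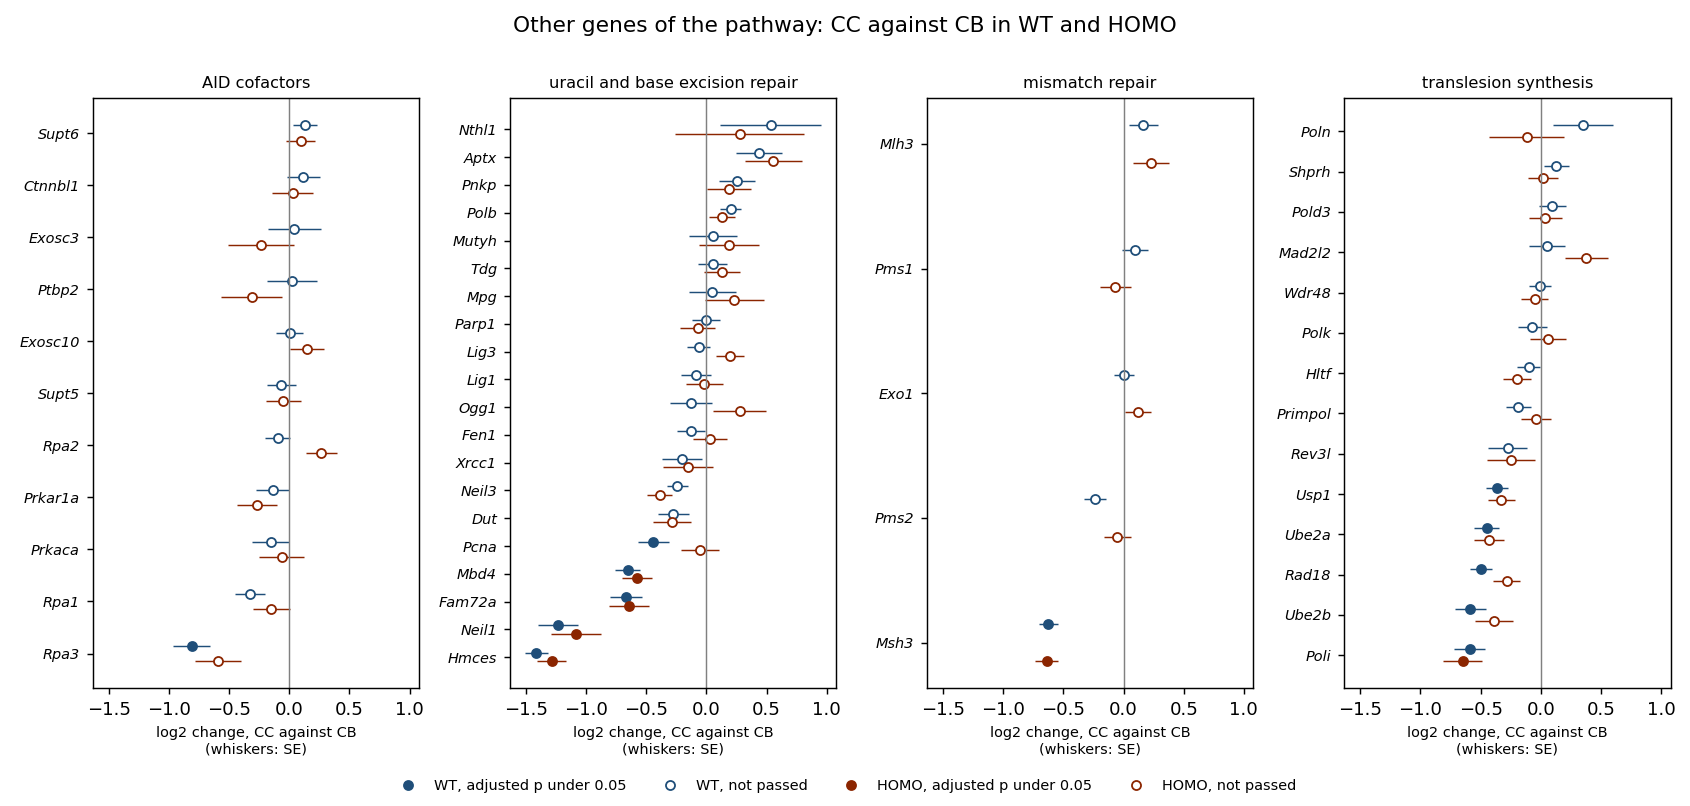
Log2 change of CC against CB (horizontal axes) of the genes in the 4 lists, WT in blue and HOMO in brown; points are the edgeR estimates, whiskers are the SE, and filled points have an adjusted p under 0.05. Neil2, at under 1 CPM in all libraries, is left out. Hmces and Neil1 lie beyond -1 in both genotypes, and Msh3 is filled in both.

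Between the genotypes none of the 51 genes passed in edgeR, with 10 at an unadjusted p under 0.05 in CB and 13 in CC, beside 2079 and 3142 of all 16596 genes. DESeq2 called Neil3 and Pms1 higher in HOMO CB, where it called 137 genes higher and 140 lower in all, and none of the 51 in HOMO CC. Pms1, a mismatch repair gene, was higher in every HOMO library than in any WT library of the same fraction, at 38.0 CPM in both HOMO CB libraries against 25.4 to 28.6 CPM in WT CB, but its log2 change of 0.51 did not pass (edgeR adjusted p = 0.183). Neil3 gave 0.42 in CB and 0.27 in CC (edgeR adjusted p = 0.183 in both). Rpa2 (-0.30) and Shprh (0.34) in CB and Supt5 (-0.31) and Rad18 (0.30) in CC had the smallest p of their lists and did not pass (edgeR adjusted p between 0.173 and 0.364). For the interaction none of the 51 passed or had an unadjusted p under 0.05 in edgeR, and none passed in DESeq2, with 1 at an unadjusted p under 0.05. The smallest p of each list there belonged to Rpa2 (0.36), Pms2 (0.19), Rad18 (0.21) and Neil2, whose counts were near 0 (edgeR adjusted p = 1 for all 4).

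For each of the 8 genes, the 3 genes with the most similar profile were taken by Pearson's r of log2 CPM over the 10 libraries, among 8305 genes. These values are descriptions, and the libraries share groups, GC content trends and depth. Polh was matched by Otub2, Ccng2 and Gnb1 at r of 0.996, 0.995 and 0.994. Apex1 was matched by Tbl3, Klf16 and Fasn at 0.972, 0.966 and 0.963, and Ung by Mms19 (0.973), Slc29a1 and Araf (both 0.96). Msh6 went with Mdc1 (0.962), Mut (0.955) and Maip1 (0.953), and Rev1 with Nol8 (0.963), Ercc5 (0.955) and Eif2b3 (0.924). Polq went with Myo9a (0.979), Zfp407 (0.955) and Rbm33 (0.947). The lowest leading values were those of Smug1, with Dscc1 (0.93), Dele1 (0.914) and Utp11 (0.91), and Apex2, with Mcph1 (0.909), Rufy3 (0.906) and Rgs9 (0.9). Among the 8 genes themselves, Ung and Apex1 had an r of 0.852, and Polh had -0.811 with Apex1 and -0.787 with Ung.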

How the data were processed

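Per the labels' protocols, RNA of bead-enriched germinal center B cells was depleted of ribosomal RNA and made into libraries with the KAPA RNA HyperPrep kit. The authors deposited one table of raw counts (whole reads assigned to each of 55421 genes) for 10 libraries. Per the submitters' processing notes, mm10, STAR, featureCounts, Subread, FastQC and R 4.2.1 were used. Their settings for strand, multiple matches and overlaps, and the annotation release, were not given in the sources used here. Total counts ranged from 9954006 to 67625110.

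Groups came from the sample titles. HOMO columns are numbered 2 and 3 and HOMO titles 1 and 2, so these columns were assigned to groups only. No libraries were duplicates (chi-square per degree of freedom 4.14 to 80.7). Identifiers were matched to symbols for 54587 genes with version and 567 without, and 267 stayed unmatched. Coordinates are those of GENCODE M21 on mm10, and promoter sequences are from RefSeq.

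Counts were filtered with filterByExpr (minimum count 10, minimum total 15), scaled with TMM and fitted with edgeR 4.0.16 in R 4.3.3 as 4 group means over all 10 libraries. The robust quasi-likelihood test was adjusted by Benjamini-Hochberg over 16596 genes (threshold 0.05). Variation between libraries beyond counting noise had a common coefficient of 23.1%, which may hold technical parts. Intervals are at 95%. Steps were tested on simulated counts. Alternatives were DESeq2 1.42.0, upper-quartile scaling, no filter, only the groups compared, each library left out, both WT number 3 libraries or WT CC libraries 1 and 2 left out, the WT number as a block and a GC content offset.

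Across 8910 genes, deviations from the group mean of WT CB and CC libraries of the same number correlated at 0.389, 0.428 and 0.427, and those of different numbers at -0.445 to 0.277. The numbers were therefore taken to pair the WT libraries, from the data and not from a label.

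The 8 genes, the 4 lists and the tests were chosen with earlier results of these data known. Named are the 8 genes, Pbrm1, the 5 mismatch repair genes analysed, the up to 4 passing genes of each list and comparison that had the smallest p (or 1 gene where none passed), and the 3 genes most similar to each of the 8. Pcna, Usp1, Xpo5, Pip4p1, Xist and Ddx3y were named after their values were seen. One result under this rule has been left out and is not reported here.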

Additional observations from a re-analysis of the deposited data

How the results depend on the processing

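The fall of Polh in CC passed under all alternatives run, in both genotypes. Of the 8 genes, 1 rose and 1 fell in WT CC; the counts were 3 and 2 with DESeq2, the replicate block, the GC content offset, or both of the last (with the offset Rev1 passed and Ung did not), 3 and 1 with upper-quartile scaling, 2 and 1 without a filter, 4 and 2 without WT number 3, and 0 and 1 without WT CC libraries 1 and 2, which leaves 1 WT CC library. Leaving out one library gave 1 to 3 higher and 1 to 2 lower. In HOMO CC 2 rose with only the groups compared and without WT number 3, and 0 to 1 with one library left out. HOMO against WT had 0 calls; without WT number 3 there were 1 higher and 1 lower in CB, 2 higher in CC, and 1 higher and 1 lower in the interaction, and leaving out one library gave 0 to 1 lower in CB. Calls over all genes differed between these fits too. In WT CC against CB they numbered 3965 in the main fit, 4552 with DESeq2, 5867 with the block and 4255 with the offset. They were 3950 with upper-quartile scaling, 4586 of 29279 without a filter and 7404 of 16088 without WT number 3. In HOMO CC against CB they were 904, and 4452 of 14651 with only the groups compared and 3706 of 16088 without WT number 3. For HOMO against WT they were 4895 in CB and 5035 in CC, each of 16088, without WT number 3. The cause of these differences was not tested. Signs turned only for log2 changes that had not passed. For Polq in HOMO CC against CB these were 0.0135 (DESeq2), 0.054 (upper-quartile), 0.0197 (only groups compared), 0.0073 (without WT CC libraries 1 and 2), 0.103 (GC offset) and -0.0218 to 0.0252 with one library left out. Polh, HOMO against WT in CB, gave 0.0090 with upper-quartile scaling and -0.144 to 0.0755 with one library left out. Smug1 gave, for the interaction, 0.0213 (no filter), 0.0387 (replicate block), 0.595 (without WT CC libraries 1 and 2) and -0.61 to 0.40 (one left out), for WT CC against CB -0.46 and -0.10 to 0.35, and for HOMO against WT in CC 0.39 and -0.80 to 0.20. With one library left out, ranges were -0.51 to 0.51 for Smug1 and -0.054 to 0.141 for Apex2 in HOMO CC against CB, and -0.22 to 0.0267 for Apex1, -0.0135 to 0.161 for Apex2 and -0.207 to 0.0300 for Polq in HOMO against WT in CC. Without WT CC libraries 1 and 2, Polq gave 0.106 there and Apex2 0.0304 for the interaction. With the GC offset, HOMO against WT gave -0.0303 for Rev1 in CB, 0.016 for Ung and -0.0362 for Rev1 in CC, and -0.0059 for Rev1 in the interaction (-0.0054 with the block). The block changed no other call. Smug1, with as few as 62 reads, had the widest intervals, and 2 HOMO libraries per fraction limit the comparisons of genotype.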
